A study of Mus musculus with 577 samples.

Results

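The 33 oocytes described here are the oocytes of the series whose cDNA was made with a commercial kit (SMART-Seq v4 3′DE), and they are 33 of its 577 samples. The kit alone was used for 18 of them, and the kit together with DRaqL for 15. This follows the sample titles and the study's methods, whereas the deposited protocol text of the kit-only oocytes describes the lysis of a DRaqL protocol, and that text is not followed here. They were taken as the oocyte columns of the kit's count table, and the follicle class came from the sample labels. The kit-only oocytes were 7 of primary follicles and 11 of follicles labelled secondary-antral, and the DRaqL oocytes were 6 and 9. All oocytes came from ovaries of 8-week-old female mice, for which no strain, genotype or treatment is given. The paper states that the amplification methods it compared, the kit with and without DRaqL among them, used sections of the same ovary. Each was cut by laser capture microdissection (LCM) from a 15 μm section stained with cresyl violet in isopropanol, so that a library represents the slice of an oocyte that held its nucleus and not a whole oocyte.

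DRaqL is a lysis for cells cut from stained sections. The detergent sodium deoxycholate (SDc) opens the cell, and Triton X-100 and albumin then quench it, so that the reverse transcriptase can work in the same tube without purification. The kit primes cDNA with oligo-dT, adds a second primer site by template switching and reads the 3′ part of each cDNA, so that polyadenylated RNA is its target. Oocytes of primary follicles have just begun to grow, whereas those of secondary and antral follicles have stored large amounts of maternal mRNA for zona proteins, growth factors and the early embryo.

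With DRaqL, 2 SuperScript reverse transcriptases were added to that of the kit, so that the lysis and the enzymes cannot be told apart. The kit libraries were sequenced in library pools S1 and S2 and the DRaqL libraries in S7 and S8, so that the method and the pool cannot be told apart either. Within each method the pools followed the follicle class, except for 1 secondary-antral kit library in pool S2, which otherwise held primary oocytes. The labels name no mouse, and the paper places both methods on the same ovary. Each group of cells therefore counts as 1 sample, and differences are given with the spread over cells and without a test. Levels are each gene's reads scaled to the reads of all gene rows (RPM) as log2(RPM + 1). A difference is always DRaqL minus kit in the mean level over the cells of a follicle class. The added 1 makes differences of low genes smaller. Cells without a read pull a mean down, so that a gene read in only some cells can differ more in mean than in summed reads.

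The depth of the libraries overlapped between all 4 groups. Primary oocytes held 1144712 to 3962805 gene-assigned reads with the kit and 667724 to 4502377 with DRaqL, and secondary-antral oocytes 570337 to 5209313 and 168370 to 3089537.

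Primary oocytes had 11610 ± 1087 protein-coding genes with a read with the kit (SD, n = 7 cells) and 10928 ± 1931 with DRaqL (n = 6). Secondary-antral oocytes had 13605 ± 1310 (n = 11) and 12724 ± 2074 (n = 9). Both differences were smaller than the SD over cells. When every library was thinned to 168370 reads, the means were 8930 and 8647 in primary oocytes and 10421 and 10184 in secondary-antral oocytes, so that at equal depth the means stayed higher in secondary-antral oocytes with either method. Noncoding rows gave 4701 ± 676 and 4733 ± 1171 genes with a read in primary oocytes, and 6128 ± 1136 and 5586 ± 1690 in secondary-antral oocytes.

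**Figure D1:**
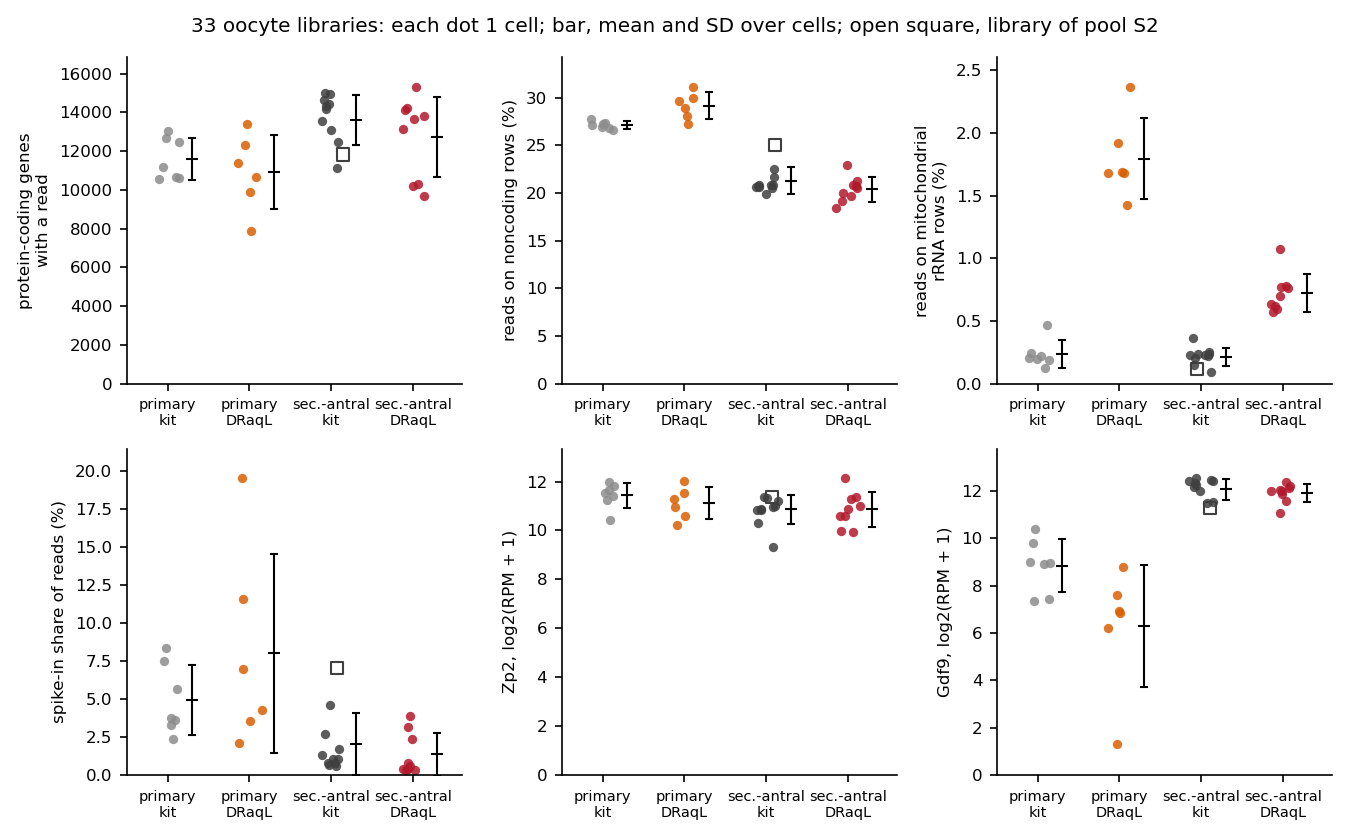
Values of the 33 oocyte libraries in 6 panels, with each dot 1 cell and a bar for the mean and SD over cells of each group. The share of reads on mitochondrial rRNA rows separates the methods in both classes, the number of coding genes and Zp2 overlap in all groups, and the open square is the secondary-antral kit library of pool S2.

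The oocyte identity of the libraries was checked with Zp2, a zona pellucida glycoprotein, and Gdf9, a growth factor that the oocyte secretes towards granulosa cells. Zp2 lay at 10.44, 11.52 and 11.97 (lowest, median and highest log2 level) in primary oocytes with the kit and at 10.24, 11.13 and 12.03 with DRaqL. In secondary-antral oocytes it lay at 9.31, 10.97 and 11.37 with the kit and at 9.92, 10.88 and 12.14 with DRaqL. All 33 oocytes thus had abundant Zp2, the groups overlapped, and the differences in mean were -0.32 and 0.00 against pooled SDs over cells of 0.58 and 0.66. Summed over cells, Zp2 took 3138 RPM with the kit and 3035 with DRaqL in primary oocytes, with 95% intervals from counting error of 3109 to 3167 and 3000 to 3070.

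Gdf9 gave another picture in the small oocytes. It lay at 7.35, 8.94 and 10.41 in primary oocytes with the kit and at 1.32, 6.91 and 8.78 with DRaqL, a difference in mean of -2.56 with a pooled SD of 1.99, and of -1.56 without the DRaqL library with the fewest reads, which is the lowest. The lowest value came from the primary DRaqL library with the fewest reads and 7885 coding genes, and the other 5 cells lay from 6.23 upwards. In secondary-antral oocytes Gdf9 lay at 11.30, 12.27 and 12.55 with the kit and at 11.06, 11.99 and 12.39 with DRaqL, so that the groups overlapped and the means differed by -0.17. Gdf9 was therefore abundant in every large oocyte with either method, and the methods overlapped in both classes.

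The 24 oocyte marker genes together took 1.42% ± 0.44 of the reads in primary oocytes with the kit and 0.713% ± 0.361 with DRaqL. In secondary-antral oocytes they took 3.06% ± 0.52 and 3.03% ± 0.44. Reads on 14 granulosa marker genes amounted to 0.0329% to 0.0984% of each primary kit library and 0.00935% to 0.0589% of each primary DRaqL library. In secondary-antral oocytes the ranges were 0.0339% to 0.0999% and 0.0408% to 0.116%. Single markers were read at levels above 4 all the same, with Inha at medians of 7.46 and 7.65 in primary and 6.70 and 6.02 in secondary-antral oocytes (kit and DRaqL). Inhba and Cyp19a1 had no read in primary kit oocytes and Inhba none in primary DRaqL oocytes, and the part of granulosa RNA in the results was not tested. A single primary DRaqL library held 0.116% of its reads on 5 blood markers, against at most 0.000594% in each of the other 32. The same library held 0.0590% on theca and interstitial markers and the primary DRaqL library with the fewest reads 0.0329%, against at most 0.0125% in the others, and the part of these cells in the results was not tested.

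ERCC spike-in RNA, a mixture of synthetic RNAs, was also counted. It took 4.94% ± 2.28 of all counted reads in primary oocytes with the kit and 8.01% ± 6.57 with DRaqL, where the highest library reached 19.5%. Among secondary-antral oocytes it took 2.03% ± 2.05 and 1.36% ± 1.40. The numbers of spike-in reads in secondary-antral oocytes did not overlap, with 14001 to 92583 with the kit and 4415 to 9690 with DRaqL, but the 2 protocols lysed cells in different buffers and equal spike-in input cannot be assumed. Spike-in levels were scaled to the spike-in reads of a library and not to its gene reads. Among 21 spike-ins with a mean log2 level of at least 10, a minimum chosen after the values were seen, differences between methods ran from -0.39 to 1.34 in the primary pools and from -0.39 to 1.87 in the secondary-antral pools. In 19 of the 21 the sign was the same in both classes, and 2 and 1 passed 2-fold. These are differences in the make-up of RNA that did not come from the cells, on another scale than the gene levels. With 4415 to 9690 spike-in reads in secondary-antral DRaqL libraries, the lowest of these levels rest on few reads.

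Noncoding rows took 27.1% ± 0.4 of the reads in primary oocytes with the kit and 29.2% ± 1.4 with DRaqL, and 21.3% ± 1.4 and 20.4% ± 1.3 in secondary-antral oocytes. The primary difference of 2.05 percentage points compares with a pooled SD of 1.04, and it was 0.839 when mitochondrially encoded rows were left out. Mitochondrial rRNA, the RNA of the small ribosomes inside mitochondria, took 0.120%, 0.208% and 0.467% (lowest, median and highest) of the reads in primary kit oocytes and 1.43%, 1.69% and 2.37% in primary DRaqL oocytes. In secondary-antral oocytes it took 0.0901%, 0.224% and 0.361% with the kit and 0.567%, 0.697% and 1.08% with DRaqL. Every DRaqL oocyte lay above every kit oocyte of its class, and the mean ratio was 7.68 in primary and 3.44 in secondary-antral oocytes.

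Long intergenic noncoding RNA took a median of 1.35% of the reads with the kit and 3.60% with DRaqL in primary oocytes, where the groups did not overlap, and 1.75% and 2.57% in secondary-antral oocytes, where they did. Rows of processed pseudogenes, copies of mRNA in the genome whose reads can stem from the parent gene, took less with DRaqL, with medians of 16.4% and 14.2% in primary and 10.8% and 9.66% in secondary-antral oocytes. Shares of miRNA rows, which can hold reads of the transcripts around them, lay close in both classes, with medians of 2.43% and 2.49% in primary and 1.80% and 1.76% in secondary-antral oocytes.

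Among 10575 genes with a mean log2 level of at least 4 in at least 1 of the 4 groups (8440 protein-coding and 2135 noncoding), the level with DRaqL was at least 2-fold higher for 1490 (14.1%) and at least 2-fold lower for 2245 (21.2%) in primary oocytes. Without the primary DRaqL library with the fewest reads, an alternative chosen after seeing the data, 1703 genes were higher and 1695 lower. Among secondary-antral oocytes it was at least 2-fold higher for 921 (8.71%) and lower for 1120 (10.6%). The median difference of all these genes was -0.20 in primary and -0.05 in secondary-antral oocytes. Higher in both classes were 427 genes (4.04%), which are 28.7% of the primary and 46.4% of the secondary-antral set, and lower in both were 492 (4.65%), which are 21.9% and 43.9%. Across genes the differences in the 2 classes had a Pearson r of 0.398 and a Spearman rho of 0.385, and 63.3% had the same sign. For noncoding genes alone r was 0.529 and for protein-coding genes 0.353. These are correlations across genes, which are not independent replicates, and all libraries of a method share its protocol.

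**Figure D2:**
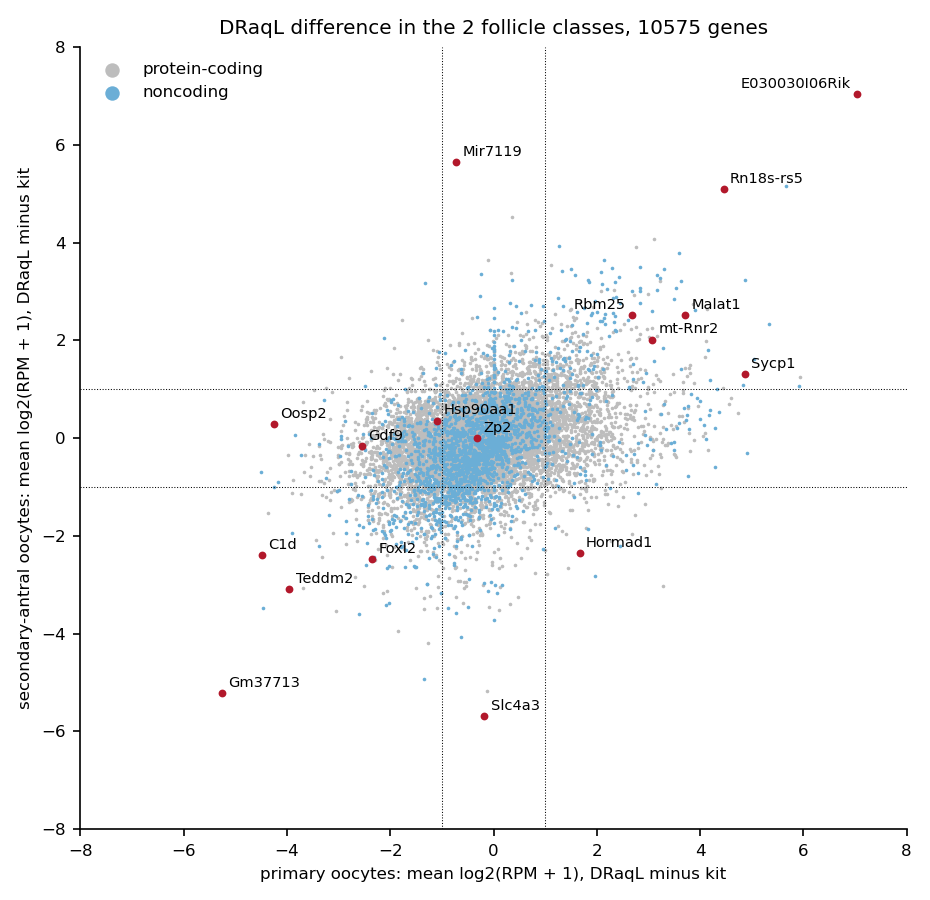
Difference in mean log2(RPM + 1) between DRaqL and kit for 10575 genes, in primary oocytes on the x axis and secondary-antral oocytes on the y axis, with dotted lines at 2-fold. E030030I06Rik and Gm37713 lie at the 2 far corners at about 7 and -5 in both classes, whereas Oosp2 and Gdf9 are lower with DRaqL in primary oocytes and near 0 in secondary-antral oocytes.

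Genes for which every DRaqL oocyte lay outside the range of the kit oocytes were fewer. In primary oocytes 218 genes (2.06%) lay above and 297 (2.81%) below, and in secondary-antral oocytes 151 (1.43%) above and 69 (0.652%) below. In both classes together 39 (0.369%) lay above and 30 (0.284%) below, and 26 and 18 of them were noncoding, from 2135 of the 10575 genes.

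Both mitochondrial rRNAs were at least 2-fold higher with DRaqL in both classes. mt-Rnr2, the large mitochondrial rRNA (chrM:1094-2675, + strand, GRCm38), lay at 9.66, 10.66 and 11.71 in primary kit oocytes and at 13.46, 13.69 and 14.25 in primary DRaqL oocytes. In secondary-antral oocytes it lay at 9.38, 10.60 and 11.26 with the kit and at 12.21, 12.42 and 13.05 with DRaqL. The groups were apart in both classes, with differences in mean of 3.07 and 2.01. Its partner mt-Rnr1, the small mitochondrial rRNA, differed by 2.96 in primary oocytes, where the groups were apart, and by 1.33 in secondary-antral oocytes, where they overlapped.

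Of 12 measured protein genes encoded in mitochondria, mt-Nd4l, mt-Nd5 and mt-Atp8 were at least 2-fold higher in primary oocytes, and 0 lower. On chrM, mt-Nd4l (9877-10173) overlaps mt-Nd4 (10167-11544), and mt-Atp8 (7766-7969) overlaps mt-Atp6 (7927-8607). These rows therefore cannot be taken as separate mRNAs. In secondary-antral oocytes 1, mt-Nd4l, was higher, and mt-Co2, mt-Co3 and mt-Nd3 were lower. Of all genes 14.1% were higher and 21.2% lower in primary oocytes, and 8.71% and 10.6% in secondary-antral oocytes. The 1 of 12 higher in secondary-antral oocytes is near the share of all genes. The differences of mt-Nd4l were 3.86 and 2.74. mt-Co2 and mt-Co3, which encode subunits of cytochrome c oxidase, had lower means with DRaqL, with differences of -0.92 and -0.87 in primary and -1.39 and -1.19 in secondary-antral oocytes. The median over the 12 genes was -0.38 and -0.43, beside -0.39 and -0.36 of 79 nuclear genes of the respiratory chain, of which 1 was 2-fold higher and 12 lower in primary oocytes and 0 higher and 6 lower in secondary-antral oocytes. The shares of lower genes, 12 and 6 of 79, are below those of all genes (21.2% and 10.6%), and 7 were lower in primary oocytes without the DRaqL library with the fewest reads. Rn18s-rs5, a row annotated as rRNA and related to cytosolic 18S rRNA, lay between 0.84 and 3.87 in primary kit oocytes and between 5.73 and 7.66 in primary DRaqL oocytes. Among secondary-antral oocytes it lay between 0.00 and 2.69 with the kit and between 5.12 and 6.87 with DRaqL. Of 8 measured rows annotated as rRNA, it was the 1 at least 2-fold higher in both classes, and the median differences of the 8 were 0.15 and -0.04. Rows annotated as rRNA took on average 0.0209% of reads with the kit and 0.0356% with DRaqL in primary oocytes, and 0.0925% and 0.0366% in secondary-antral oocytes. For mt-Rnr2 and Rn18s-rs5 all 15 DRaqL oocytes thus lay above every kit oocyte of their class.

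As the primer is oligo-dT, the stretch of 24 bases richest in A was read from the longest transcript of genes at both ends of the comparison. Of the windows read, those of 4 transcripts that were higher with DRaqL and 2 that were lower are shown. They are from the sense strand of GENCODE vM21 transcripts (GRCm38), with runs of at least 3 A in capitals, to compare the A runs inside the RNA. They were chosen after their values were seen.
mt-Rnr2, from base 393 of the transcript: ctAAAAAAAcaacAAAAtcAAAAA
mt-Rnr1, from base 302 of the transcript: atAAAtAAAtAAAtagaattAAAA
Rbm25, from base 2181 of the transcript: AAAtAAAAgAAAtcAAAAcAAAAA
Hist1h1e, from base 694 of the transcript: AAAgAAAAccgcagccaagAAAAA
F12, from base 91 of the transcript: atggAAAgactccaagAAAtttaa
Gm37713, from base 57 of the transcript: caagatcaagaagaacaaggataa
The windows of the first 4 held 18, 17, 19 and 15 A, and those of F12 and Gm37713 held 12 and 14. Of the windows not shown, Teddm2, which was also lower with DRaqL, had 17 A, and Cst9, lower in secondary-antral oocytes, had 15. Among genes higher with DRaqL, Hist1h1d had 21, E030030I06Rik 17, Gm4895 16, Erbb3 15, Gm6104 15, Tor3a 14 and mt-Nd4l 11. Counts of 14 to 17 thus occurred in both directions, and the order of these counts and the direction did not always go together.

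Over protein-coding genes, A runs, length and GC content moved with the direction. A run of 8 A (AAAAAAAA, sense strand) was found in the longest transcript of 46.2% of 312 coding genes that were higher with DRaqL in both classes, of 23.3% of 318 that were lower and of 32.2% of 8425 in all. The median transcript length was 4318, 3151 and 3374 bases. Among the 2107 coding genes with a GC content of 44.3% or less, 6.50% were higher in both classes and 2.75% lower, and among the 2106 with 53.4% or more, 1.33% were higher and 5.89% lower. In noncoding genes the A run did not divide in this way, as it was found in 11.8% of those higher, 10.6% of those lower and 8.11% of all. Their median transcript length was 705.5, 402 and 493.5 bases, and their median GC content 45.8%, 47.8% and 48.7%. Longer transcripts hold more A runs by their length, and the part of each feature in the difference was not tested.

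The protein-coding gene that ranked first by the smaller of its differences in the 2 classes was E030030I06Rik (ENSMUSG00000097327; chr10:22113050-22149270, - strand). It lay between 0.00 and 0.84 in primary kit oocytes and between 6.48 and 7.93 in primary DRaqL oocytes. In secondary-antral oocytes it lay between 0.00 and 2.65 with the kit and between 6.64 and 8.37 with DRaqL. Summed over cells it had 4 and 14 reads with the kit against 1874 and 2540 with DRaqL, and the differences in mean were 7.05 and 7.03. The pseudogene Gm4895, 4009 bases away on the same strand, had nearly the same levels with DRaqL (medians 7.32 and 7.69) and 65 and 139 reads with the kit. With reads counted up to 10 kb from a 3′ end, the counts of these 2 neighbours cannot be assigned to either with certainty.

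Among the other coding genes of the first 10, Rbm25, a splicing factor, lay at 5.10, 6.33 and 7.21 in primary kit oocytes and at 7.30, 8.90 and 9.65 in primary DRaqL oocytes, and at 5.31, 6.32 and 7.75 against 8.42, 9.18 and 9.41 in secondary-antral oocytes. Its groups were apart in both classes. Fam13c was also apart in both classes, with differences of 4.13 and 2.64. Hist1h1e and Hist1h1d, linker histones whose main mRNAs end without a poly(A) tail, differed by 2.77 and 2.72 in primary oocytes, where the DRaqL library with the high blood marker share had no read of either and the groups overlapped. Summed over primary cells, Hist1h1e had 985 of 14343870 reads with the kit and 1171 of 9438347 with DRaqL, and Hist1h1d had 425 and 803. In secondary-antral oocytes they differed by 3.91 and 2.94. Erbb3, a receptor of the EGF family, Tor3a, Arl13b, a small GTPase of the cilium, mt-Nd4l and Gm9833 made up the 10, with differences of 2.33 to 3.86 in primary and 2.74 to 4.07 in secondary-antral oocytes.

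Among noncoding genes, the pseudogene Gm6104 (3.30 and 3.47) and Gm37868 (4.87 and 3.23) were also among the first 5. Of 15 nuclear and imprinted lncRNAs 2 were measured, Malat1 and Xist. Xist, the RNA of X inactivation, had lower means with DRaqL (-1.19 and -0.97), with overlap in both classes. Malat1, a long RNA retained in the nucleus, lay at 6.51, 8.27 and 9.46 in primary kit oocytes and at 10.99, 11.83 and 12.84 in primary DRaqL oocytes, with the groups apart. In secondary-antral oocytes it lay at 3.04, 5.92 and 9.34 with the kit and at 5.85, 8.93 and 10.52 with DRaqL, with overlap.

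**Figure D3:**
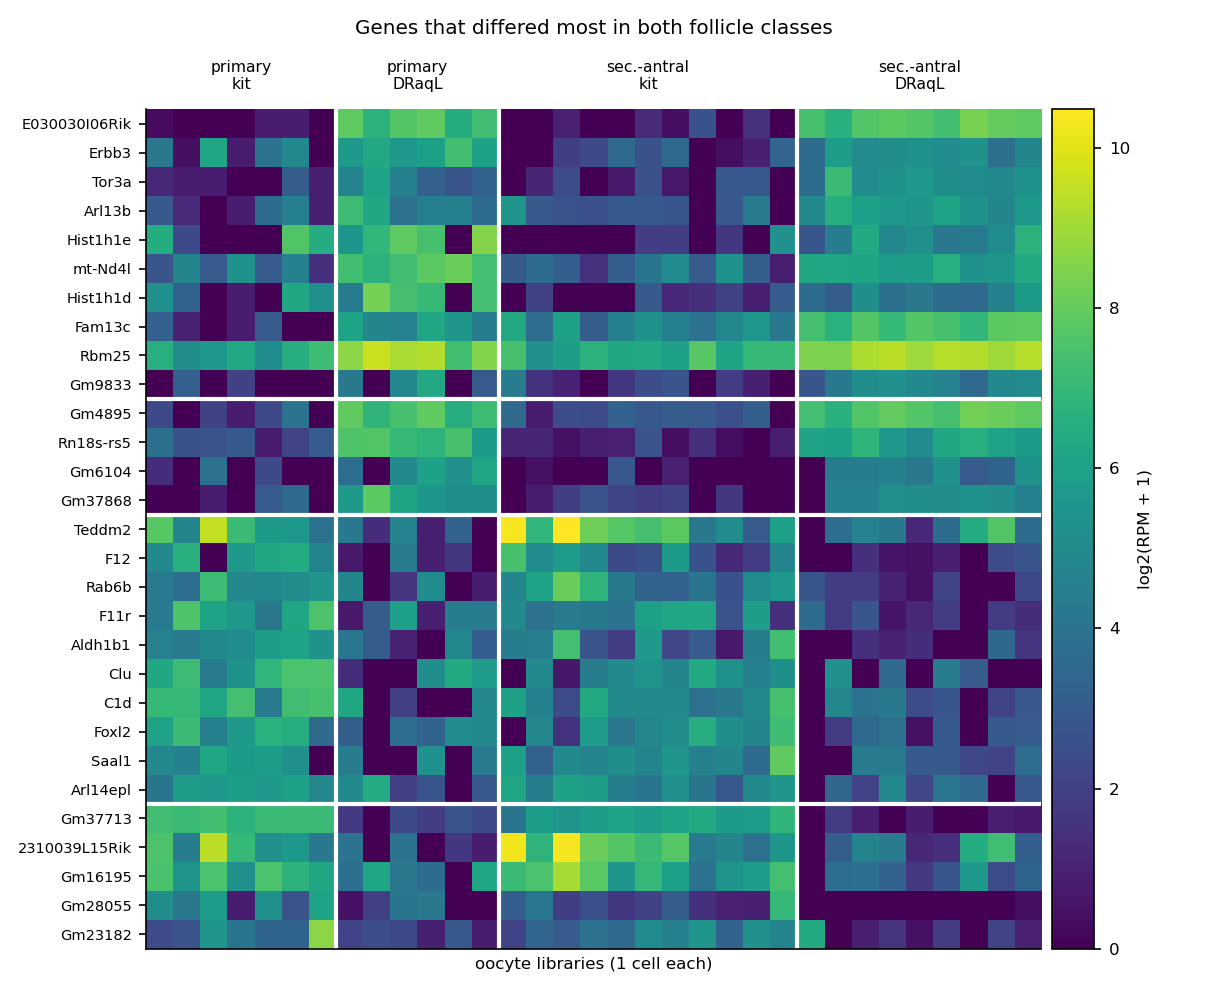
Levels as log2(RPM + 1) of named genes that differed most in the same direction in both classes, with 1 column per oocyte and white lines between groups and directions. E030030I06Rik, Gm4895 and Rn18s-rs5 are high in all 15 DRaqL oocytes, and Gm37713 is high in all 18 kit oocytes.

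On the other side, the processed pseudogene Gm37713 (ENSMUSG00000102245; chr1:157621272-157621469, + strand) lay between 6.73 and 7.31 in primary kit oocytes and between 0.00 and 2.71 in primary DRaqL oocytes. Among secondary-antral oocytes it lay between 4.08 and 6.87 with the kit and between 0.00 and 1.82 with DRaqL. The groups were apart in both classes, with differences of -5.26 and -5.22 and with 1994 and 1436 summed reads against 28 and 7. A processed pseudogene shares its sequence with a parent gene, so that the source of these reads is uncertain.

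The 10 coding genes that were lower with DRaqL by the same ranking overlapped between the methods. Teddm2 lay at 3.90, 5.71 and 9.54 in primary kit oocytes and at 0.00, 2.31 and 4.64 in primary DRaqL oocytes, and at 3.04, 7.37 and 10.48 against 0.00, 3.77 and 7.62 in secondary-antral oocytes. The lincRNA 2310039L15Rik had similar values, with medians of 5.58 and 1.26 in primary and 7.15 and 3.13 in secondary-antral oocytes, although the 2 genes lie on different chromosomes. F12, which encodes a clotting factor, was read in 6 of 7 primary kit oocytes and differed by -3.68 and -3.08.

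C1d, a cofactor of the RNA exosome, differed by -4.48 and -2.39, and Foxl2, the transcription factor that marks granulosa cells, by -2.35 and -2.47. C1d was read in 7 primary kit oocytes and 3 primary DRaqL oocytes. Summed over cells it had 1788 of 14343870 reads and 383 of 9438347, a smaller difference than that in mean. Foxl2 lay at 3.63, 6.02 and 7.15 in primary kit oocytes and at 0.00, 3.57 and 5.09 in primary DRaqL oocytes. Rab6b, F11r, Aldh1b1, Clu, Saal1 and Arl14epl made up the 10, with differences of -3.32 to -2.25 in primary and -3.53 to -2.28 in secondary-antral oocytes. None of the 10 was apart in either class, and of the noncoding genes Gm16195 (-2.60 and -3.59), Gm28055 (-2.48 and -2.59) and Gm23182 (-2.36 and -2.46) overlapped in at least 1 class.

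Genes of secreted factors, of the subcortical maternal complex and of the oocyte NLRP family had lower list medians with DRaqL in primary oocytes, and medians near that of all genes in secondary-antral oocytes. Beside the counts of list members stand the shares of all genes, 14.1% higher and 21.2% lower in primary and 8.71% higher and 10.6% lower in secondary-antral oocytes. Of the 10 genes of zona proteins and secreted factors, 5 were at least 2-fold lower with DRaqL in primary oocytes, with a list median of -1.23, and 0 were lower and 1 was higher in secondary-antral oocytes, with a median of -0.07. The 5 were Zp3, Gdf9, Bmp15, Oosp1 and Oosp2. Zp3, another zona glycoprotein, lay at 8.93, 11.22 and 12.30 in primary kit oocytes and at 6.79, 8.94 and 11.15 in primary DRaqL oocytes, with a difference of -0.47 in secondary-antral oocytes. Oosp2, an oocyte-secreted protein, lay at 1.34, 5.53 and 6.01 against 0.00, 0.00 and 2.52 in primary oocytes, and at 6.66, 8.69 and 9.16 against 8.29, 8.88 and 9.28 in secondary-antral oocytes.

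The subcortical maternal complex, a protein assembly under the egg surface needed by the early embryo, was similar. Of its 6 genes 5 were lower in primary oocytes (median -1.59) and 0 passed 2-fold in secondary-antral oocytes (median 0.06). Nlrp5 lay at 10.35, 11.32 and 11.79 in primary kit oocytes and at 6.46, 8.70 and 10.26 in primary DRaqL oocytes, with the groups apart and a difference of -2.78, against -0.93 in secondary-antral oocytes. Padi6 differed by -1.30 and 0.00, Tle6 by -2.12 and -0.57 and Ooep, the gene that did not pass 2-fold, by -0.74 and 0.51. Of 10 genes of the oocyte NLRP family, which shares Nlrp5 with this list, 6 were lower in primary oocytes, among them Nlrp14 (-2.36), and Nlrp4e was higher (1.89). In secondary-antral oocytes 0 of the 10 passed 2-fold. Without the primary DRaqL library with the fewest reads the primary medians of the 3 lists were -1.01, -1.15 and -1.04, with 5, 5 and 5 genes lower.

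Not all oocyte genes followed. Figla, a transcription factor of the first stages of follicle formation, differed by 0.01 and -0.17. H1foo, the linker histone of the oocyte, differed by 0.11 in primary and by 1.10 in secondary-antral oocytes. Mos, a kinase of meiotic maturation, had higher means with DRaqL in both (1.37 and 0.92), and Fgf8 had no read in any of the 13 primary oocytes and differed by 1.35 in secondary-antral oocytes.

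Other lists of oocyte genes had primary medians between -0.86 and -0.36. The 7 measured Obox and oogenesin genes had medians of -0.36 and -0.62, with 3 lower in primary oocytes (Oog1, Oog2 and Oog3) and 0 past 2-fold in secondary-antral oocytes. The Tcl1 cluster had medians of -0.86 and 0.35, with 2 of 6 lower in primary oocytes. For 16 genes of mRNA storage and decay the medians were -0.52 and -0.04, with 0 higher and 5 lower in primary oocytes and 1 higher and 2 lower in secondary-antral oocytes, and Dcp2, of mRNA decapping, was among the lower genes in the first and was the higher gene in the second. The 6 early oocyte transcription factors had medians of -0.49 and -0.11, with Taf4b lower in primary and Sohlh1 lower in secondary-antral oocytes. The 11 measured genes of meiotic arrest and resumption had medians of -0.71 and -0.12, with 2 higher and 2 lower in primary oocytes. Of all genes 14.1% were higher and 21.2% lower in primary oocytes, and 8.71% and 10.6% in secondary-antral oocytes. Without the primary DRaqL library with the fewest reads, 2 of the 16 genes of mRNA storage and decay were lower in primary oocytes, with a median of -0.18.

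Genes of meiotic prophase, which oocytes enter before birth, had higher list medians with DRaqL. Of 10 measured, 6 were at least 2-fold higher and 0 lower in primary oocytes (median 1.27), and 3 were higher and 1 lower in secondary-antral oocytes (median 0.49), beside 14.1% and 21.2% of all genes in primary and 8.71% and 10.6% in secondary-antral oocytes. Sycp1, of the synaptonemal complex that joins paired chromosomes, lay at 0.84, 2.27 and 3.63 in primary kit oocytes and at 5.57, 6.97 and 8.17 in primary DRaqL oocytes. The groups were apart and the difference was 4.86, against 1.31 in secondary-antral oocytes. Smc1b, a meiotic cohesin, was also apart in primary oocytes (1.65) and differed by -0.30 in secondary-antral oocytes, Mlh3, of crossover formation, by 3.23 and 1.17, Sycp3 by 0.99 and 0.68, and Hormad1 by 1.66 and -2.36.

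Histone cluster genes, most of whose mRNAs end in a stem-loop in place of a poly(A) tail, had the highest list median in primary oocytes. Of 25 measured of 67, 19 were at least 2-fold higher with DRaqL and 1, Hist1h2bc (-2.90), was lower in primary oocytes, where the median was 1.68 and 14.1% of all genes were higher. The 19 were all H1 or H2A genes. Most of the 25 measured genes were of these 2 types, so that the absence of H2B, H3 and H4 genes among the 19 gives no comparison between histone types. In secondary-antral oocytes 6 of the 25 were higher, among them Hist1h1c (1.88), and 1 was lower, beside 8.71% and 10.6% of all genes, and the median was 0.43. Near-identical copies in these clusters share reads, so that single members and the number of members past 2-fold are uncertain. Host genes of small nucleolar RNAs had a median of 1.38 in primary oocytes, with 4 of 6 higher and Snhg20 the furthest (2.57), and of -0.32 in secondary-antral oocytes.

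**Figure D4:**
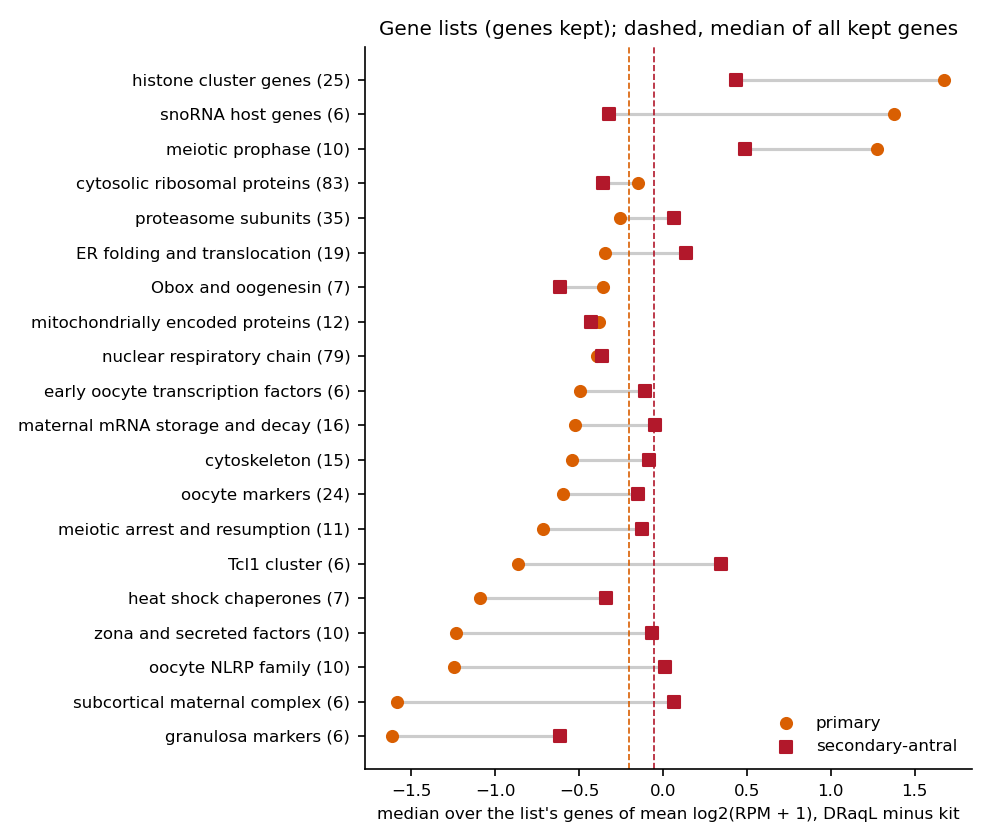
Median difference between DRaqL and kit over the measured genes of each list with at least 5 of them, with the number of genes in brackets, circles for primary and squares for secondary-antral oocytes, and dashed lines at the medians of all 10575 genes. The primary medians run from -1.61 to 1.68 and the secondary-antral medians from -0.62 to 0.49.

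Of 7 measured heat shock chaperones 4 were at least 2-fold lower with DRaqL in primary oocytes (median -1.09) and 0 passed 2-fold in secondary-antral oocytes (median -0.34), with Hspa8 (-1.17) and Hsp90aa1 (-1.09) apart between the methods, and Hsp90aa1 had a higher mean with DRaqL in secondary-antral oocytes (0.35). Of 14 granulosa markers, 6 were measured and 5 of them, among them Foxl2 and Amhr2 (-1.67 and -1.81), were lower with DRaqL in primary oocytes and 3 in secondary-antral oocytes, with medians of -1.61 and -0.61, whereas Inha, a subunit of inhibin, differed by -0.26 and -0.16. The 83 genes of cytosolic ribosomal proteins seldom passed 2-fold, with medians of -0.15 and -0.36, and 1 higher and 2 lower by 2-fold in primary oocytes and 0 and 1 in secondary-antral oocytes. Without the primary DRaqL library with the fewest reads 3 granulosa markers were lower in primary oocytes (median -1.05). The 35 proteasome genes had medians of -0.26 and 0.06, with 1 higher and 5 lower in primary and 1 and 1 in secondary-antral oocytes, and without that library the primary median was 0.0047 with 3 lower. The counts of lower ribosomal and proteasome genes are below the shares of all genes (21.2% and 10.6%). For 19 genes of protein folding and translocation in the endoplasmic reticulum the medians were -0.34 and 0.14 (-0.06 in primary oocytes without that library), and for 15 cytoskeleton genes -0.54 and -0.09. Of 15 immediate early genes 1 was measured, with -0.28 and 0.25, and the 2 genes the study used for qPCR had medians of -0.29 and -0.12. Of the theca and interstitial markers 1, Hsd3b1, was measured (-1.24 and -3.22), and of 5 blood, 4 endothelium and 5 leukocyte markers 0.

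Single genes differed between the classes in the size of the difference by up to 6.36 on the log2 scale. Mir7119, Cpsf2 and Oosp2 had the largest shift towards higher values with DRaqL in secondary-antral oocytes. Mir7119 lay between 0.00 and 2.96 in secondary-antral kit oocytes and between 4.23 and 6.71 in secondary-antral DRaqL oocytes, without separation in primary oocytes, and Cpsf2, of mRNA 3′ processing, differed by -2.95 in primary and 1.67 in secondary-antral oocytes. Camp, Slc4a3 and D030018L15Rik had the largest shift the other way. Slc4a3, an anion exchanger, lay between 4.93 and 8.39 in secondary-antral kit oocytes and between 0.00 and 3.67 in secondary-antral DRaqL oocytes, and had 3 and 0 reads in primary oocytes.

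Camp, an antimicrobial peptide, differed by 3.29 and -3.03, and the lincRNA D030018L15Rik by 4.92 and -0.30. Cst9, of the cystatin family, was chosen after its values were seen. It lay between 3.65 and 6.42 in all 11 secondary-antral kit oocytes (994 reads summed) and had no read in the 9 secondary-antral DRaqL oocytes, which makes it at least 154-fold lower by a floor of 3 counts over the group. Whether these differences would be found in other mice was not tested.

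Genes linked to oocyte growth differed between the follicle classes with both methods. Of the genes that the study tied to oocyte diameter in other oocytes, amplified with DRaqL-SC3-seq, 333 that rise and 55 that fall with diameter were measured here. The rising genes were higher in secondary-antral than in primary oocytes by a median of 3.83 with the kit and 4.72 with DRaqL, and 320 and 327 of the 333 were at least 2-fold higher (31.4% and 36.6% of all genes). The falling genes had medians of -1.54 and -2.09, with 37 and 44 of 55 at least 2-fold lower (17.2% and 21.9% of all genes). Follicle class thus separated these genes in the same direction with either method. As follicle classes are tied to pools within each method, the class and the pool cannot be told apart.

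**Figure D5:**
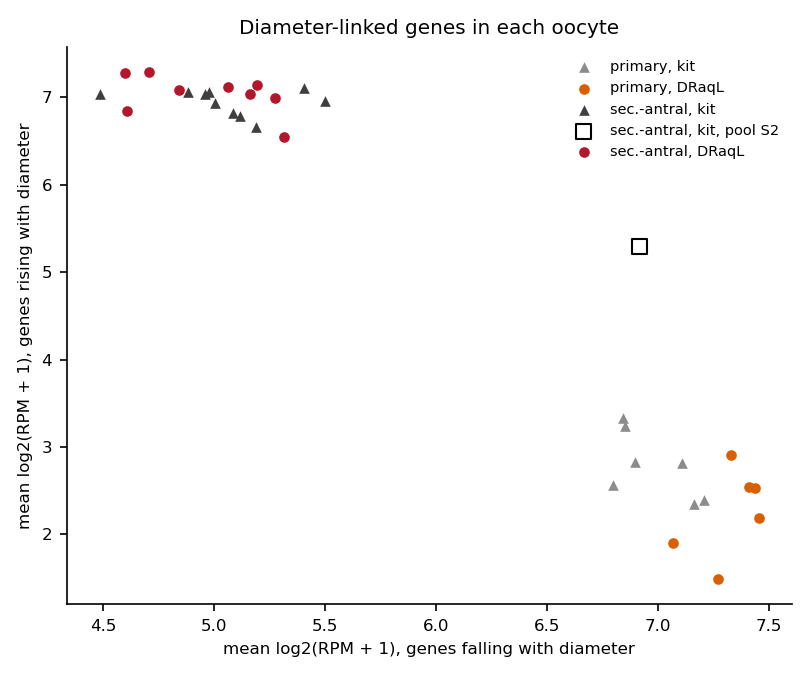
Mean log2(RPM + 1) of the genes that rise with diameter (y axis) against those that fall (x axis), with 1 point per oocyte. Primary oocytes lie at the lower right and secondary-antral oocytes at the upper left with both methods, and the secondary-antral kit library of pool S2 (open square) lies between the classes on the y axis and beside the primary oocytes on the x axis.

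Within the primary class the rising genes had a mean level of 2.79 ± 0.39 with the kit and 2.26 ± 0.51 with DRaqL, and the falling genes of 6.98 ± 0.17 and 7.33 ± 0.15. The level of rising minus falling genes ran from -4.82 to -3.51 with the kit and from -5.78 to -4.43 with DRaqL, so that it was lower on average with DRaqL and the groups overlapped. Of the 333 rising genes, 97 were at least 2-fold lower and 16 higher with DRaqL in primary oocytes (median -0.43), against 5 lower and 38 higher in secondary-antral oocytes (median 0.23). This difference in the growth level moves with the lower maternal transcripts of primary DRaqL oocytes, and its part in them was not tested.

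The secondary-antral kit library of pool S2 had a value of -1.62, against 1.46 to 2.55 in the other 10. Its oocyte marker share was 1.71%, its noncoding share 25.0% and its spike-in share 7.05%, and it correlated with primary kit oocytes (median r = 0.621) as well as with secondary-antral kit oocytes (0.590). Without it, the share of genes at least 2-fold higher with DRaqL in secondary-antral oocytes was 7.86% and lower 10.2%.

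Oocytes of a class resembled each other more within than between methods. Over the 10575 genes the median Pearson r between 2 cells was 0.709 within primary kit oocytes, 0.665 within primary DRaqL oocytes and 0.647 between them. In secondary-antral oocytes it was 0.785, 0.789 and 0.722. Between the classes it was 0.462 with the kit and 0.362 with DRaqL, so that oocytes of different classes were less alike than oocytes of different methods. The pools followed the method and, but for 1 library, the class, so that neither can be told apart from the pool. The median SD of a gene over cells was 0.99 and 1.21 in primary oocytes and 0.72 and 0.66 in secondary-antral oocytes (kit and DRaqL), so that the spread was wider with DRaqL in primary oocytes and not in secondary-antral oocytes.

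Granulosa cells of the same table, 34 with the kit and 39 with DRaqL, were amplified by the same pair of protocols. Of the 427 genes that were higher with DRaqL in both oocyte classes, 232 were measured there, and 184 of these (79.3%) were at least 2-fold higher in granulosa cells both neighboring and non-neighboring to oocytes, against 34.4% of all 4890 genes measured in both kinds of cell. Of the 492 genes that were lower, 210 were measured and 39 (18.6%) were lower in granulosa cells at both positions, against 1.53%, while 26 (12.4%) were higher at both, against 34.4%. The median differences in neighboring and non-neighboring cells were 1.01 and 0.94 over all genes measured. They were 2.33 and 2.25 for the genes higher in oocytes, and -0.46 and -0.19 for those lower. The 2-fold threshold thus lay near the median of all genes in granulosa cells. Granulosa libraries had a median of 5503 and 5736 coding genes with the kit and 7920.5 and 9032 with DRaqL, and the part of this number in the granulosa shares was not tested.

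As examples in the direction of the oocytes, mt-Nd4l differed by 4.59 and 4.34 in neighboring and non-neighboring granulosa cells, Rbm25 by 2.52 and 3.68, and Gm37713 by -4.51 and -4.14. Other named genes did not follow the oocytes. Among those lower there, Teddm2 differed by 0.80 and 0.18 and C1d by 0.94 and 0.14, and Fam13c, higher there, by 0.25 and -0.40.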

How the data were processed

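Single oocytes were cut by LCM from alcohol-fixed ovary sections, and the kit's oligo-dT primers carried an in-line index. Per the labels and the paper, the authors deposited raw read counts per gene without normalization, made with fastp 0.20.0, cutadapt 1.16, HISAT2 2.1.0 on GRCm38 and HTSeq 0.10.0 within 10 kb of annotated 3′ ends. Whether strand was used is not given in the sources used here, so that overlapping and antisense genes are uncertain. Gene types came from another deposited table. Spike-in counts were deposited by the authors as reads per ERCC molecule (92 listed). The table holds 45905 genes, of which 22060 are protein-coding.

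RPM over all rows, log2(RPM + 1), means and SDs over cells were computed here with scipy 1.17.1, pandas 2.3.3 and numpy 2.4.6 under python 3.11.15, and TMM factors with edgeR 4.0.16. The code was checked on simulated counts. Exact Poisson 95% intervals cover counting error alone, since reads carry no molecular identifiers. Genes were named by rank of the smaller difference of the 2 classes (10 coding and 5 noncoding genes in each direction), by the 3 largest shifts between classes in each direction, and from 27 gene lists, in which some names had no row in the table. The oocytes, lists and rules were chosen with earlier results of these data known. 1 gene that the rule names is not reported here.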

Additional observations from a re-analysis of the deposited data

Results flagged for a closer look

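Single cells that stood far from the others of their group were sought in groups of 6 to 9 cells by the ratio of the gap to the range (Dixon's 95% critical value), for library measures and named genes. Of 243 group values, 31 held such a cell, where chance flags about 1 in 20, and values on the log2 scale are bounded by 0, which by itself makes a cell without reads stand apart.

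The lowest and highest values below are those of each gene or measure, and they did not all come from the same cell of a group.

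Among primary DRaqL oocytes, 1 cell held 4502377 reads, and the highest mitochondrial share was 3.83% (next 2.98%) and the highest oocyte marker share 1.41% (next 0.798%). The lowest values of single genes were 1.32 for Gdf9, 1.32 for Tle6, 4.54 for Inha and 0.00 for Hist1h1e, Camp and Gm37713. The highest were 2.52 for Oosp2, 3.24 for Bmp15, 2.58 for Hist1h2bc and 7.84 for Gm37868.

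Among primary kit oocytes, the lowest values were 0.00 for F12, Saal1 and Hist1h1c, 4.38 for C1d and 2.57 for Cpsf2. The highest were 3.11 for Tor3a, 6.25 for D030018L15Rik and 0.84 for Cst9.

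Among secondary-antral DRaqL oocytes, the highest values were 3.48 for Aldh1b1, 1.82 for Gm37713, 0.40 for Gm28055, 6.39 for Gm23182 and 10.50 for Hspa8, and the lowest were 0.00 for Gm6104, Gm37868, Sycp1 and Hormad1 and 4.23 for Mir7119.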

How the results depend on the processing

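Of 420 values under alternatives, 387 stayed within the spread over cells, within 1.5 times of a share, or within 0.1 of a correlation or median SD. The other 33 moved, and 8 of the 420 changed sign. The difference in noncoding genes per primary oocyte turned from higher with DRaqL to -88.5 with a minimum of 5 reads, 5 changes were in secondary-antral Zp2 and the secondary-antral NLRP median, both near 0, and 2 were in the primary proteasome median, which went from -0.26 to 0.020 and 0.0047 without libraries of few reads. With a pseudocount of 10, 7.58% of genes were at least 2-fold higher and 6.83% lower in primary oocytes, 4.40% and 3.37% in secondary-antral oocytes, and 1.80% and 0.946% in both. Over all 34787 genes with a read, the shares were 8.21% and 9.98% in primary oocytes, 4.63% higher in secondary-antral oocytes, 1.68% and 2.27% in both, and rho was 0.255. With the ratio of summed counts 13.9% were lower in primary oocytes, where higher calls made up 49.4% of all calls, against 39.9% in the main setting. The noncoding share of primary oocytes differed by 0.839 percentage points without mitochondrial rows.

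With a pseudocount of 0.1, list medians in primary oocytes were -2.14 for the Tcl1 cluster and 1.76 for meiotic prophase, and the rising genes of the class comparison were 5.06 with the kit and 6.47 with DRaqL. With a pseudocount of 10, meiotic prophase was 0.80, the rising genes 2.29 and 2.72, and the falling genes with DRaqL -1.64. Without the shallowest library of each group, heat shock chaperones in primary oocytes were -0.84 and proteasome subunits 0.020. Leaving out in turn 2 primary DRaqL libraries that stood apart, the one with the fewest reads and the one with the most blood marker reads, was chosen after seeing the data. The first gave 0.0047 for proteasome subunits. The median SD over cells was 1.26, 1.51, 1.01 and 0.86 (primary kit, primary DRaqL, secondary-antral kit, secondary-antral DRaqL) after thinning and 0.65, 0.73, 0.53 and 0.47 with a pseudocount of 10. The cause was not tested. No paired analysis was possible because no result comes from a test, and the in-line indexes and oocyte ranges that names share between the methods are not stated to pair cells. Depth limits genes at few reads, and variation between mice cannot be seen where no mouse is named.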
